A study of Mus musculus with 30 samples.

Results

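Espn, the gene of the actin-bundling protein espin, was examined together with Myo7a, Ush1c, Pcdh15 and Cdh23, genes of hair bundle proteins that are disrupted in Usher syndrome, in the eye and hypothalamus of mice with and without an intact Per3 gene. The 5 genes were taken by name from the array files, which gave 10 probes among the 41174 probes that are not controls, and each probe was matched between the tissues by its probe name. Espn was chosen by its difference in signal between the genotypes in the eye and the lack of one in the hypothalamus in these same arrays, so its genotype differences are described here without a test. The other 4 genes entered for their known role beside espin.

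The mice were adult males on a C57Bl/6J background, either Per3-/- mice, which carry the knockout in every cell, or their wild-type (WT) littermates. All of them were kept in an ultradian schedule of 3.5 h of light and 3.5 h of darkness and were killed in cycle 17, so all groups share it. RNA came from the whole eye (7 WT and 7 Per3-/- mice) and from a block of hypothalamus that included the suprachiasmatic nucleus (8 WT and 8 Per3-/- mice). Each mouse and tissue was hybridised to 1 Agilent array of 60-mer probes with 1 dye (Cy3).

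Stereocilia are stiff, actin-filled projections of the hair cells of the inner ear. Espin binds and bundles their actin filaments, cadherin 23 (Cdh23) and protocadherin 15 (Pcdh15) form the tip link that joins neighbouring stereocilia, and harmonin (Ush1c) and the motor myosin VIIa (Myo7a) anchor and move that link. Usher syndrome joins deafness with a loss of photoreceptors, and several of its proteins are also found at the photoreceptor's connecting cilium and calyceal processes or, for myosin VIIa, in the retinal pigment epithelium.

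The signal of Espn rested on a pair of probes that lie side by side on the minus strand of chromosome 4, with 19 bases of genome between them. Their sequences, as the array files give them, are shown because both report the same stretch of the gene, and those of the Cdh23 probes because this gene's probes gave unlike signals. Positions are those of the hypothalamus array files, on assembly mm9. Probe A_52_P469345 covers chr4:151502532-151502591 without a gap. Probe A_51_P451799 covers chr4:151502611-151502886, a span of 276 bases for a sequence of 60 bases, so it joins 2 separate blocks of the genome.
Espn A_52_P469345: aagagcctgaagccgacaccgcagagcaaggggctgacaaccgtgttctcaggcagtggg
Espn A_51_P451799: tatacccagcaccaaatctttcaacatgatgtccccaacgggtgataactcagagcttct
Cdh23 A_52_P416341: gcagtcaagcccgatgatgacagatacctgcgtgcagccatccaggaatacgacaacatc
Cdh23 A_52_P625083: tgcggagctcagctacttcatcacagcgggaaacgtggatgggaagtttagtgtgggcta

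The other probes were 1 for Myo7a (chr7:105199855-105199914), 1 for Ush1c (chr7:53450876-53450935), 4 for Pcdh15 (between chr10:72946804-72946863 and chr10:74108685-74108744) and the 2 for Cdh23 (chr10:59767612-59767671 and chr10:59870203-59871788). The second Cdh23 probe also joins separate blocks, over a span of 1586 bases.

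Signals are given as log2 of the background-subtracted intensity minus log2 of the array's 75th percentile, which puts 0 at that percentile. It lay between 1131 and 2207 intensity units, and 67.9% to 80.7% of the probes were well above background on an array. The tissues carried their own markers. Summed over 8 photoreceptor genes, the signal relative to the 75th percentile was 588 to 744 on the eye arrays and at most 0.209 on the hypothalamus arrays, while for 6 hypothalamic neuron genes it was 91.2 to 125 in the hypothalamus and at most 0.360 in the eye. Per3 itself had 1 probe, which gave -3.13 ± 0.39 in WT and -3.58 ± 0.52 in Per3-/- eyes (SD, n = 7 each) and -3.46 ± 0.15 and -3.97 ± 0.21 in the hypothalamus (SD, n = 8 each). Whether it lies in the deleted part of the gene is not given in the sources used here, so it does not check the labels.

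Espn was lower in the eyes of Per3-/- mice with both probes. With A_52_P469345, the 7 WT eyes had a lowest, median and highest signal of -3.60, -3.31 and -2.83, and the 7 Per3-/- eyes had -4.51, -4.18 and -4.08. With A_51_P451799, the values were -3.78, -3.70 and -3.43 in WT and -4.95, -4.41 and -4.09 in Per3-/- eyes. The genotypes did not overlap with either probe: the highest Per3-/- eye lay 0.48 below the lowest WT eye with the first probe and 0.31 below it with the second, on the log2 scale. Over all probes, 20 (0.0486%) had every Per3-/- eye below every WT eye, and since this contrast chose Espn, nothing is read from its place among them.

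The mean difference between the genotypes in the eye was -0.94 (SE 0.11) with A_52_P469345 and -0.82 (SE 0.12) with A_51_P451799, which is 1.92-fold and 1.77-fold lower. In intensity units, the medians were 134 in WT and 72.3 in Per3-/- eyes with the first probe, and 115 and 64.0 with the second. All 14 eyes were well above background with both probes. In these whole-tissue samples, fewer cells that hold Espn and less Espn RNA per cell cannot be told apart.

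The arrays of the eye came on 4 slides that each held both genotypes. Within the slides the difference ranged from -1.21 to -0.75 with A_52_P469345 and from -0.94 to -0.70 with A_51_P451799. It was negative on 4 of 4 slides with both, as it had to be where the genotypes do not overlap. The SD among eyes of a genotype was 0.26 in WT and 0.15 in Per3-/- mice with the first probe and 0.15 and 0.28 with the second. The size of the difference depended on the background correction. With the normexp correction, which adds 50 intensity units to every spot, it was -0.36 and -0.19 for the 2 probes, where the median of all probes moved to 0.17.

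**Figure D1:**
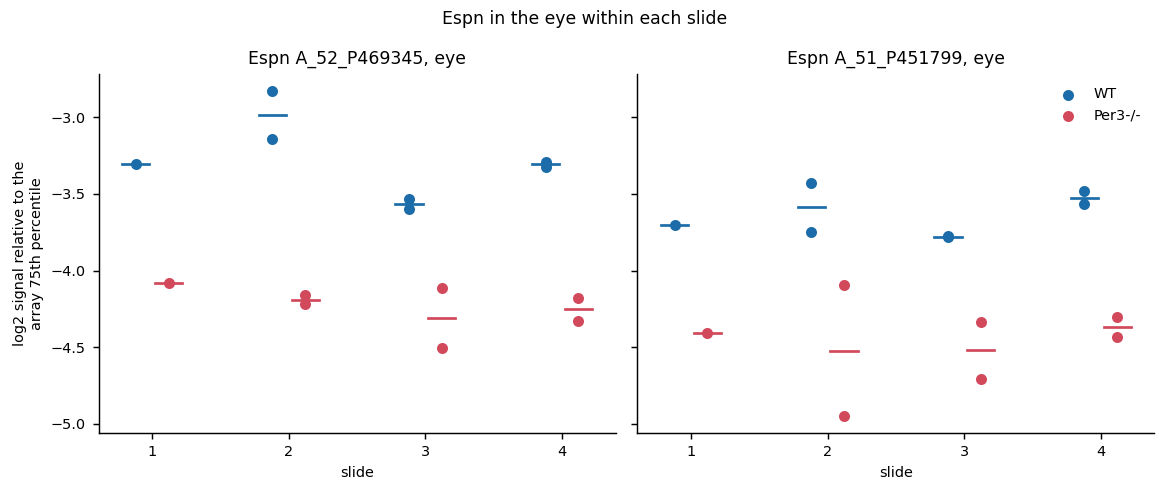
Signal of Espn in the eye by slide (horizontal axis) for its 2 probes, as log2 signal relative to the array's 75th percentile (vertical axis). Points are single eyes (blue WT, red Per3-/-), and short lines are the mean of a genotype on a slide. On each of the 4 slides the Per3-/- eyes lie below the WT eyes, as they do across all slides.

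Signals of marker genes of several cell types, as measured in the eye, are given beside this difference. Hair cells belong to the inner ear, so the signal of their marker genes is not read as hair cells in the eye. Summed over 8 photoreceptor genes, the signal was 588 to 744 in WT and 607 to 716 in Per3-/- eyes, and over 6 hair cell genes it was 0.512 to 1.32 in WT and 0.648 to 1.55 in Per3-/- eyes, where Gfi1 was well above background on no eye array. Over 4 genes of oligodendrocytes, the myelin-forming cells of brain and optic nerve, it was 6.30 to 65.5 in WT (median 17.2) and 3.08 to 40.5 in Per3-/- eyes (median 11.4), and all 4 genes had a lower mean in Per3-/- eyes, with none past the test. Over 5 genes of the ocular surface and glands it was 249 to 330 in WT (median 263) and 224 to 294 in Per3-/- eyes (median 236). Krt12 carries most of that sum, with a log2 eye mean of 7.96 against 2.93 for the brighter Krt13 probe. By the brightest probe of each gene, 4 of the 5 genes had a higher mean in Per3-/- eyes. Within that list Per3-/- minus WT was 0.92 for Pigr, 0.88 and 0.87 for the probes of Ltf and 0.82 and 0.14 for those of Muc5ac. It was 0.04 and 0.0054 for the probes of Krt13 and -0.16 for Krt12, and none of the 8 probes of the list passed the test. The part of any of these in the Espn difference was not tested.

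In the hypothalamus the signal of Espn was close to background and the genotypes overlapped. With A_52_P469345, the lowest, median and highest signals were -6.31, -6.05 and -5.93 in WT and -6.29, -6.10 and -5.56 in Per3-/- mice. The difference was 0.08 (SE 0.11), and 8 of 8 WT and 7 of 8 Per3-/- arrays were well above background. With A_51_P451799, only 2 WT and 3 Per3-/- arrays were well above background, and the values ran from -8.33 to -6.01 in WT and from -7.95 to -5.99 in Per3-/- mice, a difference of -0.04 (SE 0.30). Within the 4 slides the difference lay between -0.08 and 0.37 with the first probe and between -0.36 and 0.39 with the second.

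The genotype difference in the eye minus that in the hypothalamus was -1.02 (SE 0.15) with A_52_P469345 and -0.76 (SE 0.34) with A_51_P451799. These values, too, were among those that drew attention to Espn. The blocks of hypothalamus differed in what they held of neighbouring tissue. Over 4 choroid plexus genes the summed signal was 0.410 to 9.76 in WT (median 0.749) and 0.452 to 13.5 in Per3-/- mice (median 2.72), and all 4 genes had a higher mean in Per3-/- mice. Over 4 anterior pituitary genes it was 0.733 to 40.7 in WT (median 1.24) and 0.630 to 785 in Per3-/- mice (median 0.787), and all 4 again had a higher mean in Per3-/- mice, with the brightest probe of each gene. None of these genes passed the test. Their part in the values of the hypothalamus was not tested.

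The other 4 genes showed no genotype difference past the test in the eye. Of their 8 probes, 0 passed an adjusted p of 0.05 in limma's moderated test, against 0.0194% of all probes. An unadjusted p under 0.05 was found for 0 of them, where 743 of the 41174 probes had one. With the methods' t-test 0 passed, where 7 of all probes were lower and 0 higher. At such low shares a count of 0 among 8 probes says little. The differences of the 8 probes ran from -0.48 to 0.10, with a median of -0.07 against 0.00 over all probes.

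Myo7a, the motor of the tip link complex, had the narrowest interval. Its lowest, median and highest signals were -0.77, -0.58 and -0.42 in WT and -0.92, -0.54 and -0.51 in Per3-/- eyes, and the difference was -0.01 (95% interval -0.19 to 0.17). Ush1c, the scaffold harmonin, ran from -4.07 to -2.93 in WT (median -3.55) and from -4.04 to -3.04 in Per3-/- eyes (median -3.53). Its difference of -0.06 had a wider interval of -0.51 to 0.39.

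Pcdh15, the lower strand of the tip link, was measured with unlike precision by its probes. With A_52_P395088, WT eyes ran from -0.66 to -0.20 (median -0.53) and Per3-/- eyes from -0.85 to -0.32 (median -0.49), a difference of -0.08 (interval -0.29 to 0.14). With A_51_P132760 the difference was -0.13 (interval -0.42 to 0.17). The dim probe A_52_P311941 had the largest difference of the 8, -0.48, with an interval of -1.10 to 0.14 and an unadjusted p of 0.118 in limma. Its 7 WT eyes were all well above background, between -4.95 and -4.11, while 5 of 7 Per3-/- eyes were, and the Per3-/- eyes spread from -5.73 to -3.92, so that 4 lay below every WT eye and 1 above.

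Cdh23, the upper strand of the tip link, ran from -5.98 to -4.64 in WT (median -5.09) and from -6.05 to -4.79 in Per3-/- eyes (median -5.23) with A_52_P416341. The difference was -0.09, with an interval of -0.64 to 0.45. Probes Pcdh15 A_52_P652503 and Cdh23 A_52_P625083 were well above background on none of the 30 arrays, so their differences compare background signals.

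In the hypothalamus, too, 0 of the 8 probes passed the test, against 0.0413% of all probes. An unadjusted p under 0.05 was found for 0 of them, where 1161 of the 41174 probes had one. With the methods' t-test 0 passed, where 13 of all probes were lower and 1 was higher. The differences of the 8 probes lay between -0.19 and 0.13. For the probes that were well above background on all 16 arrays, the intervals were -0.18 to 0.13 for Myo7a, -0.28 to 0.21 for Ush1c, -0.21 to 0.05 and -0.32 to 0.09 for the brighter Pcdh15 probes and -0.14 to 0.29 for Cdh23. The difference between the tissues in the genotype effect passed the test for 0 of the 8 probes, against 0.00486% of all probes. An unadjusted p under 0.05 was found for 0 of the 8, where 909 of the 41174 probes had one.

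**Figure D2:**
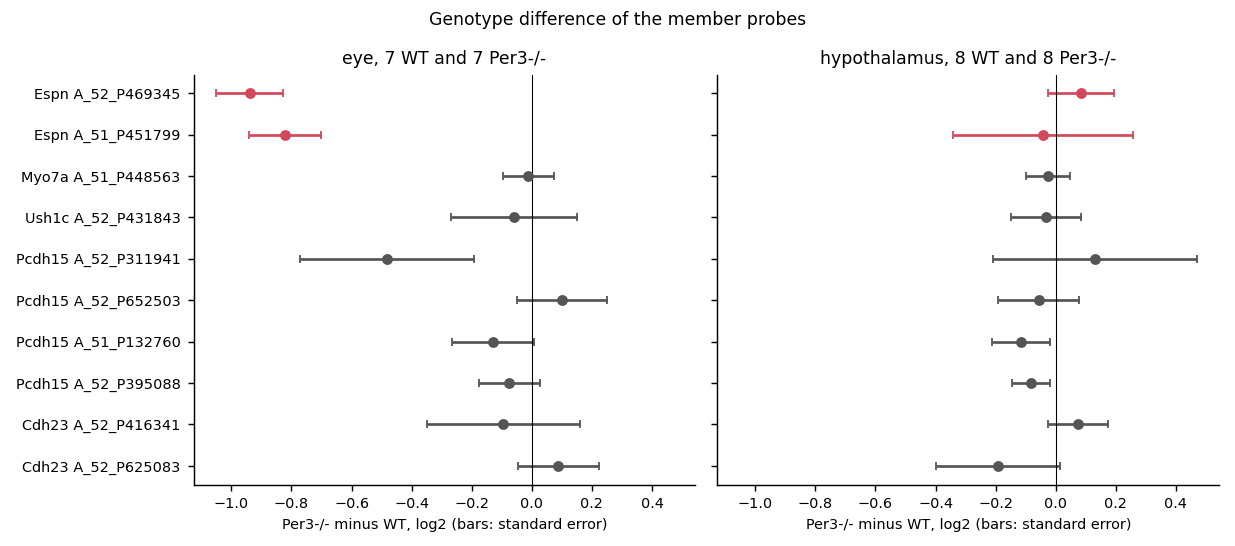
Per3-/- minus WT difference of the 10 member probes (vertical axis) on the log2 scale (horizontal axis), in the eye (left) and hypothalamus (right), with bars for the standard error. The 2 Espn probes (red), which were chosen for this difference, lie at -0.94 and -0.82 in the eye and near 0 in the hypothalamus, and the other 8 probes lie between -0.48 and 0.13.

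Between the tissues, Espn and Pcdh15 were higher in the eye, Cdh23 was lower, and Myo7a and Ush1c did not pass the test. With the mouse as a random block, 6 of the 10 probes passed an adjusted p of 0.05 in limma, against 83.1% of all probes. Of these, 5 were higher in the eye, as were 47.9% of all probes, and 1 was lower, as were 35.2%. The median tissue difference of all probes was 0.19, and it moved to -0.07 with quantile normalization and 0.38 with normexp. Each slide held 1 tissue, so slide and tissue cannot be told apart.

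Espn was 4.89-fold higher in the eye with A_52_P469345 (difference 2.29, 95% interval 2.13 to 2.45, adjusted p = 9.23e-22 in limma) and 6.71-fold with A_51_P451799 (difference 2.75, interval 2.40 to 3.09, adjusted p = 3.38e-15). With the second probe only 5 of 16 hypothalamus arrays were well above background, so its fold rests on signals near background. Relative to the median of all probes the differences were 2.09 and 2.55. In both genotypes every eye was above every hypothalamus block with both probes. How many of all probes separate the tissues in this way was not counted, so this is given as a description. The order of the groups was WT eye, Per3-/- eye, then the hypothalamus of either genotype, whose values overlapped. With normexp the tissue differences were 1.284 and 1.200, or 0.91 and 0.82 relative to all probes. The normexp values started from the spot median in the eye and the spot mean in the hypothalamus, so those between tissues also compare these spot measures.

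Pcdh15 was also higher in the eye, and 3 of its 4 probes passed the test with differences of unlike size. A_52_P395088 ran from -0.85 to -0.20 over the 14 eyes and from -2.81 to -2.35 over the 16 hypothalamus blocks, a difference of 2.08 (interval 1.96 to 2.19, adjusted p = 5.11e-24 in limma). A_51_P132760 gave 3.004 (interval 2.84 to 3.17, adjusted p = 3.28e-24). The intervals of these 2 probes do not overlap. For A_51_P132760, however, 88.1% of the variation within genotypes in the eye lay between slides, so its interval may be too narrow. A_52_P311941 gave 2.49 (interval 2.02 to 2.96, adjusted p = 3.4e-11), but only 1 of 16 hypothalamus arrays was well above background with it, so that value rests on signals near background. None of these 3 probes had an eye below a hypothalamus block, a trait whose share among all probes was not counted.

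Cdh23, the partner of Pcdh15 in the tip link, went the other way. With A_52_P416341 it was 1.48-fold lower in the eye (difference -0.56, interval -0.83 to -0.29, adjusted p = 0.000264 in limma), and the tissues overlapped, with -6.05 to -4.64 in the eye and -5.10 to -4.36 in the hypothalamus. Eyes of 1 slide were much alike for this probe, with slide means from -5.87 to -4.77 in the eye and from -4.94 to -4.63 in the hypothalamus, so the 14 eyes are not independent and this p may be too small. With the slide as a random block, at the correlation of 0.166 estimated over all probes, the adjusted p was 0.000532. For this probe 95.8% of the variation within genotypes in the eye lay between slides. That correlation is too low for it, so this p may be too small as well. With normexp the difference was 0.14 and no longer passed the test (adjusted p = 0.415), but relative to the median of all probes it was negative with each scaling, at -0.76, -1.17 (quantile) and -0.24 (normexp).

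Myo7a had a tissue difference of 0.09 (interval -0.02 to 0.20, adjusted p = 0.117 in limma). With the mouse as a fixed block, over the mice that gave both tissues, the difference was 0.11 and passed the test (adjusted p = 0.0351). Ush1c differed by -0.11 (interval -0.35 to 0.13, adjusted p = 0.369), but by -0.58 with quantile normalization (adjusted p = 1.8e-06 in limma). Of the variation of Ush1c within genotypes in the eye, 86.3% lay between slides, so its p-values may be too small. For both genes the 4 groups overlapped, so no order of the groups is given.

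**Figure D3:**
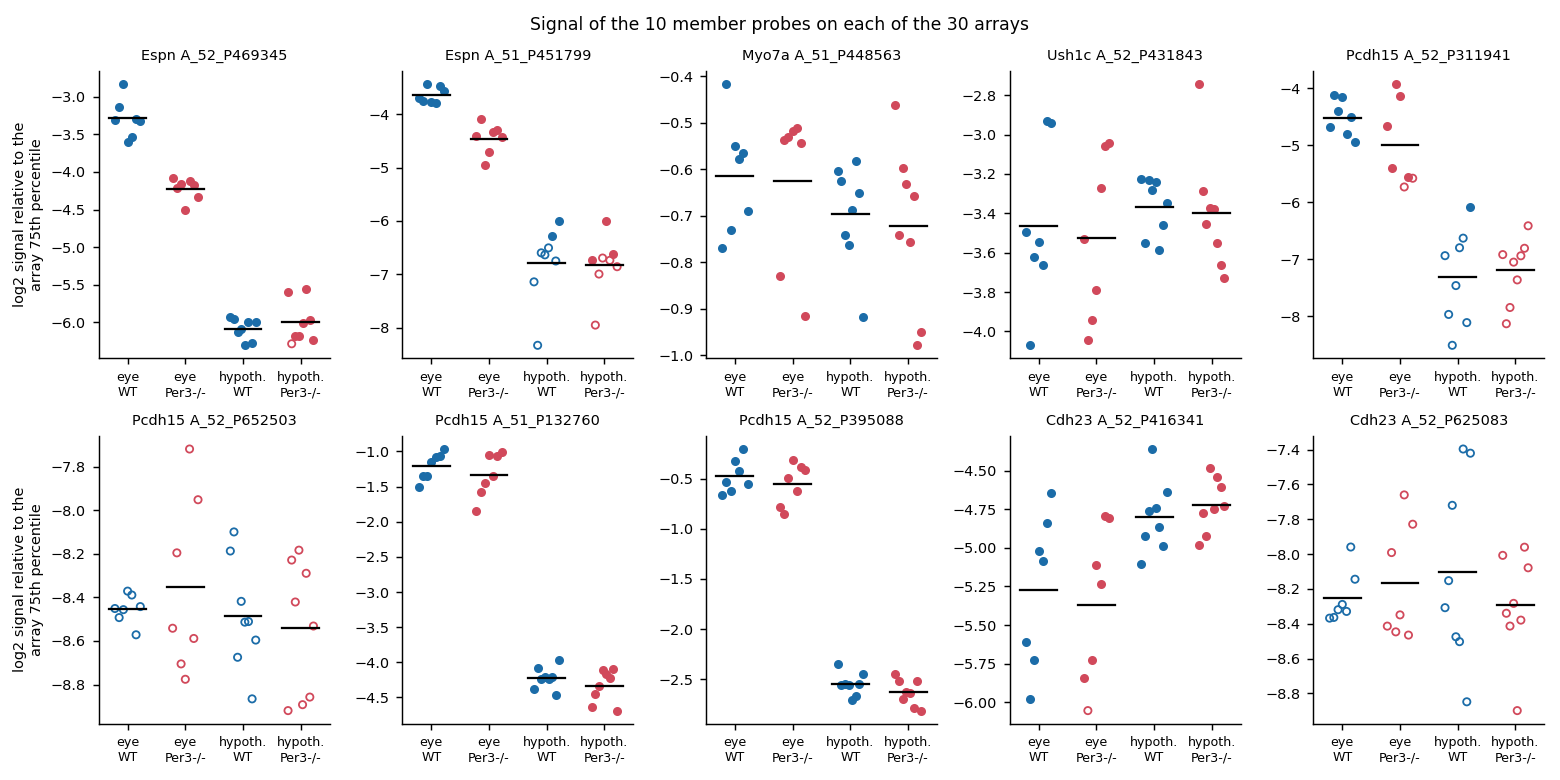
Signal of the 10 member probes on the 30 arrays, as log2 signal relative to the array's 75th percentile (vertical axis, on its own scale in each panel), by tissue and genotype (horizontal axis). Filled points are well above background, open points are not, and the lines are group means. The genotypes separate for both Espn probes in the eye, and the tissues separate for Espn and for 3 Pcdh15 probes. How many of all probes separate the tissues was not counted.

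The other genes of the pathway were taken from 4 lists with 35 genes and 58 probes on the array. None of them passed the genotype test: 0 of 58 probes had an adjusted p under 0.05 in limma in either tissue. Of all probes, 0.0194% did in the eye and 0.0413% in the hypothalamus. An unadjusted p under 0.05 was found for 0 of the 58, where 743 of the 41174 probes had one in the eye and 1161 in the hypothalamus. With the methods' t-test 0 of the 58 passed. Of all probes, 7 were lower with it in the eye, and 13 were lower and 1 higher in the hypothalamus. The median difference of the 58 probes was -0.0044 in the eye, with a range of -0.59 to 0.53, and -0.02 in the hypothalamus, with a range of -0.56 to 0.40. The medians over all probes were 0.00 and -0.01. Between the tissues, 35 probes were higher and 16 lower in the eye, with a median difference of 0.84. Of all probes, 47.9% were higher and 35.2% lower, and the counts of each list below stand against these shares.

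Of 6 other Usher genes, 11 of 13 probes were higher and 1 was lower in the eye, with a median difference of 1.78 against 0.19 over all probes, of which 47.9% were higher and 35.2% lower. Adgrv1, a very large adhesion receptor, was higher by 3.06 with A_51_P389543 (SE 0.05), and clarin 1 (Clrn1) by 2.39 with A_52_P621691 (SE 0.08). Cib2, a calcium-binding protein of the transduction complex, was lower in the eye (difference -3.53, SE 0.06). A further Adgrv1 probe among the 11 was above background on no array.

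Of 18 genes of hair bundle actin and myosins, 9 were higher in the eye, 6 lower, 1 had probes in both directions and 2 passed with no probe. Of their 27 probes 12 were higher and 10 lower, close to the shares of all probes (47.9% and 35.2%), and their median difference was 0.19, as over all probes. Fascin 2 (Fscn2), the actin-bundling protein of photoreceptors and hair cells, was at least 449-fold higher in the eye (adjusted p = 4.56e-31 in limma), and its relative Fscn1 differed by -1.93 (SE 0.05). This bound sets the hypothalamus, where no array was well above background for Fscn2, at the lowest signal well above background on each array. Ezrin (Ezr), which ties actin to the membrane, was higher by 2.44 (SE 0.09) and Clic5 by 2.08 (SE 0.08, A_51_P193993). Plastin 1 (Pls1), another actin-bundling protein, differed by -1.79 (SE 0.06). The calls for Espnl (1.61) and Myo15a (-0.83) rest on signals near background. Espnl was well above it on 1 WT eye array and on no hypothalamus array. Myo15a was on 2 WT and 2 Per3-/- hypothalamus arrays and on no eye array.

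Of 5 mechanotransduction genes, 3 were higher and 2 lower in the eye, with 5 and 2 of 7 probes, where 47.9% and 35.2% of all probes were. The channel genes Tmc1 and Tmc2 were higher by 3.23 (SE 0.15, A_51_P435268) and 2.46 (SE 0.17, A_51_P436521), while their partners Tmie and Lhfpl5 differed by -2.87 (SE 0.05) and -1.02 (SE 0.07). A further probe each of Tmc1 and Tmc2 passed the test with signals that were above background on no array. Of 6 brush border genes, whose proteins build the microvilli of the gut in a way related to the Usher complex, 4 were higher, 1 lower and 1 had probes in both directions, with 7 higher and 3 lower of 11 probes. Cdhr5 was higher by 1.46 (SE 0.12, A_51_P453428) and Myo7b by 1.19 (SE 0.11, A_51_P424298), and Cdhr2 differed by -1.80 (SE 0.22, A_52_P218470) and Vil1 by -0.99 (SE 0.06, A_51_P381409). The calls higher in the eye for Anks4b (0.63) and Cdhr2 A_52_P665119 (1.08) rest on signals near background. Anks4b was well above it on 1 Per3-/- eye array, and this Cdhr2 probe on 2 WT and 1 Per3-/- eye arrays. Neither was on any hypothalamus array.

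**Figure D4:**
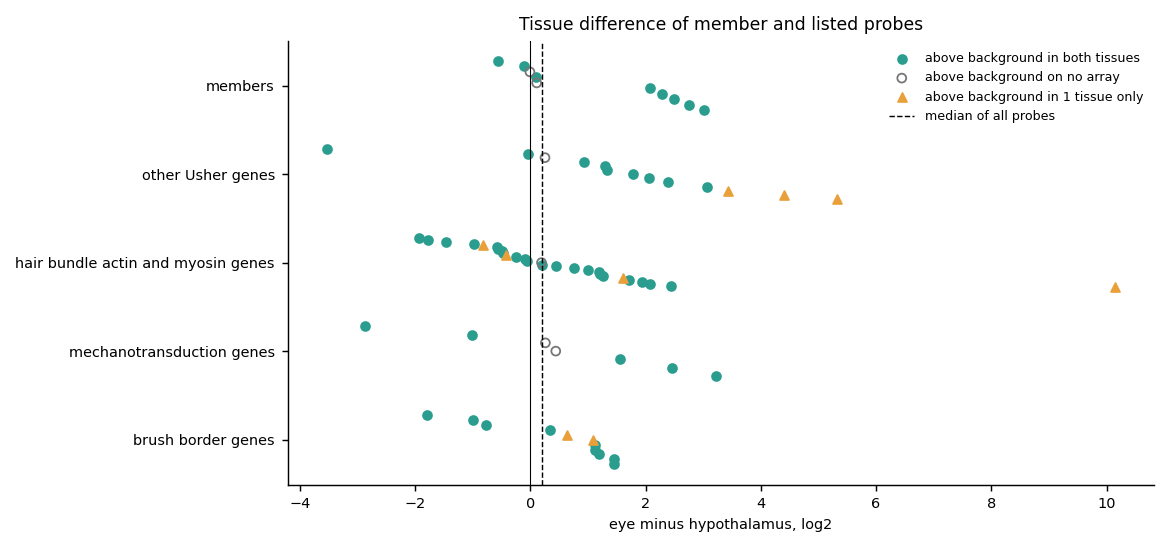
Eye minus hypothalamus difference on the log2 scale (horizontal axis) of the member probes and of the probes of the 4 lists (vertical axis). Green points were well above background on some array of both tissues, triangles in 1 tissue only and open points on no array, and the dashed line is the median of all probes at 0.19. Fscn2 is the triangle at 10.15, of which the data give only the bound of at least 449-fold.

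Among mice of the same genotype, the signals of several related genes in the eye followed the slide. Of the variation within genotypes, 95.8% lay between slides for Cdh23 (A_52_P416341), 88.1% for Pcdh15 A_51_P132760 and 86.3% for Ush1c, against a median of 33.9% over the 27877 probes well above background on all eye arrays. Cdh23 had a mean of -5.87 on slide 2 and -4.77 on slide 4, and Ush1c had -3.92 and -2.99 on the same slides. For Espn the share was 49.4% with A_52_P469345 and 13.5% with A_51_P451799.

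With 1 probe a gene and the genotype means removed, 20 relations between the 5 genes were computed, 10 in each tissue. One of them passed the adjustment over the 20: Ush1c and Cdh23 in the eye had r = 0.81 (n = 14, permutation p = 0.00152, adjusted p = 0.0304) and rho = 0.74 (permutation p = 0.00614, adjusted p = 0.123). With the slide means removed as well, r was 0.17 (permutation p = 0.685), and without the 2 mice farthest from the median of Ush1c it was 0.74 (permutation p = 0.0177, adjusted p = 0.313). Since 86.3% (Ush1c) and 95.8% (Cdh23) of the variation within genotypes lay between slides, the r of 0.81 mostly describes slides. Little variation and few shuffles were left within slides, so the value with slide means removed cannot decide whether the relation holds within them. Espn was related to none of the other 4 genes at an adjusted p under 0.05, with r from -0.52 to -0.06 in the eye and from -0.07 to 0.33 in the hypothalamus (two-sided permutation tests within genotype). With normexp, Espn and Cdh23 in the hypothalamus had r = 0.84 (n = 16, permutation p = 0.00028, adjusted p = 0.0028) and rho = 0.77 (permutation p = 0.00195, adjusted p = 0.0195), where r was -0.07 without it. In the eye the r of Espn with the other 4 genes also depended on the processing. It ran from 0.16 to 0.91 with normexp and from -0.28 to 0.82 with slide means removed, none at an adjusted p under 0.05. For Espn and Ush1c it moved from -0.06 to 0.83 and 0.82.

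The genes whose variation over the 14 eyes was most like that of Espn A_52_P469345, with genotype means removed and among 27875 probes of other genes, were Msto1 (r = 0.96, rho = 0.89), Mpg (r = 0.94, rho = 0.94), Limd2 (r = 0.93, rho = 0.78), a transcript with only an Ensembl name (r = 0.92, rho = 0.87) and Qtrt1 (r = 0.91, rho = 0.83). None of them is a gene of the lists. The second Espn probe had r = 0.40 with the first over the same eyes. For Myo7a the most similar genes were Plxdc1 (r = 0.93, rho = 0.90), Sv2a (r = 0.91, rho = 0.82), 8430419L09Rik (r = 0.90, rho = 0.78), Gtf2i (r = 0.90, rho = 0.74) and Zzef1 (r = 0.90, rho = 0.88). These are the highest of many values over few arrays that share slides, and they are given as a description.

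Espn lies on the same chromosome as Per3, 1.12 Mb from the Per3 probe. Within 500 kb on either side of Espn, 32 further probes of 23 genes were measured. In the eye 1 of them was lower in Per3-/- mice at an adjusted p under 0.05, where 0.0194% of all probes were lower, and none was higher. In the hypothalamus 2 were lower, where 0.034% of all probes were, and none was higher, where 0.00729% were. The median difference of the 32 probes was 0.04 for the eye and 0.00 for the hypothalamus.

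The probe called in both tissues was that of Kcnab2, a subunit of potassium channels, 263 kb from Espn, with a difference of -0.77 (SE 0.08, adjusted p = 0.000924 in limma) in the eye and -0.46 (SE 0.07, adjusted p = 0.0122) in the hypothalamus. One of 2 probes of Phf13 was lower in the hypothalamus (A_52_P632397, difference -0.68, SE 0.07, adjusted p = 0.000294), while the other differed by -0.09 (SE 0.06, adjusted p = 0.991). The nearest neighbours did not pass the test in either tissue: Plekhg5 had -0.25 (SE 0.07) in the eye and -0.23 (SE 0.12) in the hypothalamus. The Tnfrsf25 probes A_51_P178561 and A_52_P460584 had -0.16 (SE 0.36) and 0.30 (SE 0.18) in the eye. In the hypothalamus they had -0.06 (SE 0.30) and 0.76 (SE 0.27), where the first was well above background on 0 of 16 arrays and the second on all. The probe A_51_P142594 of Rnf207 had the highest values, 1.201 (SE 0.24) in the eye and 1.29 (SE 0.33) in the hypothalamus, and passed the test in neither. It was well above background on only 2 of 16 hypothalamus arrays, so the value there rests on signals near background. The other Rnf207 probe, A_52_P213722, was well above background on all arrays. It had 0.63 (SE 0.16) in the eye and 0.07 (SE 0.06) in the hypothalamus and passed in neither.

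**Figure D5:**
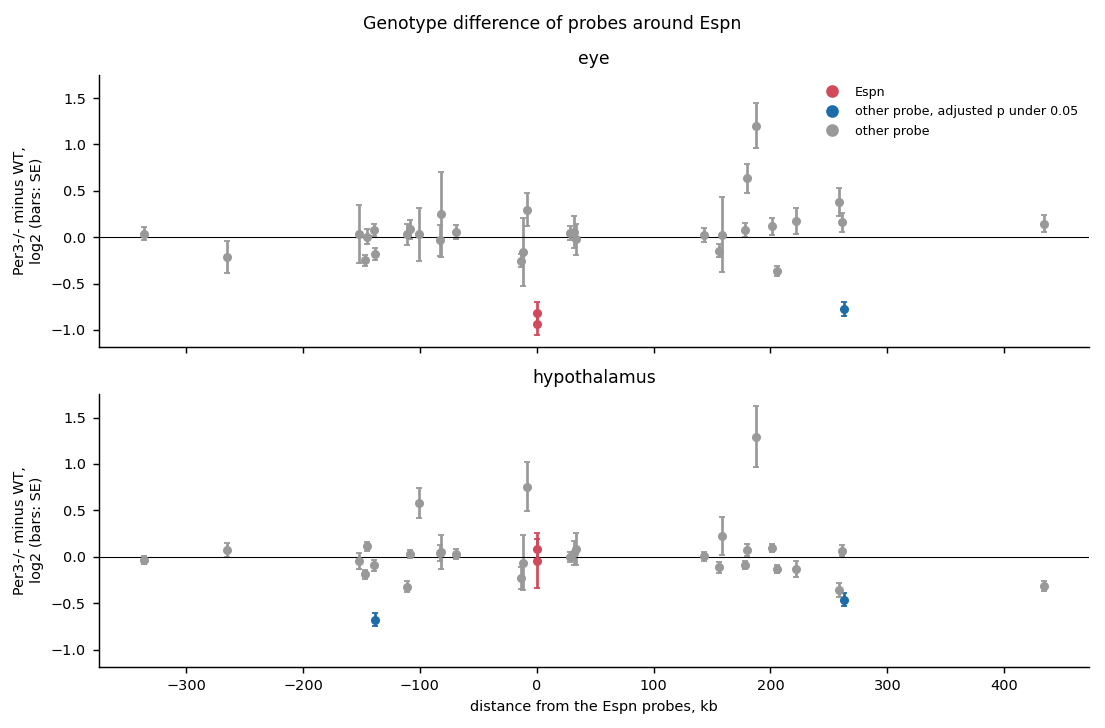
Per3-/- minus WT difference on the log2 scale (vertical axis, bars for the standard error) of the probes around Espn, by their distance from the Espn probes in kb (horizontal axis), in the eye (top) and hypothalamus (bottom). Red points are the 2 Espn probes, low in the eye and near 0 in the hypothalamus, and blue points are other probes at an adjusted p under 0.05, which are Kcnab2 in both tissues and a Phf13 probe in the hypothalamus.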

How the data were processed

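The authors hybridised 1 array per mouse and tissue and extracted each spot with Agilent Feature Extraction (version 10.7.1.1 per the file headers). The deposited intensities are background-subtracted and on a linear scale. The authors also deposited log2 values relative to each array's 75th percentile, centred on each probe's median over a tissue, which were used as an alternative.

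Here spots that the software had marked as uneven or outlying were dropped (36 to 91 an array), spots of a probe were averaged, and the 75th percentile was subtracted after log2. Genotypes were compared within each tissue, and tissues in a fit of all 30 arrays in which the mouse was a random block (correlation 0.059), with limma 3.58.1 in R 4.3.3, two-sided, with Benjamini-Hochberg adjustment over 41174 probes. Eye and hypothalamus arrays of the same genotype and replicate number were taken as the same mouse. The fit was tested on simulated data. Correlations used 100000 permutations within genotype (Python 3.11.15, numpy 2.4.6). The smallest p these can give is 1e-05. With slide means removed, the shuffles ran within genotype and slide, in groups of 1 or 2 arrays of a tissue. So few arrangements exist there that p cannot come near 1e-05. The methods' t-test is the unpaired test named in the study's methods, on the same values.

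The members and gene lists were chosen with earlier results of these data known. Named were all member probes, listed genes and neighbours past the test and, between tissues, the 2 largest differences in each direction of each list. The values of 1 listed gene are not reported here. Nearby genes, the highest neighbour that did not pass and some listed genes called near background were named after their values were seen. The alternatives tried are given in the closing section. Arrays of different mice are the replicates, and their number limits the precision. Same-numbered WT and Per3-/- mice were not treated as pairs.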

Additional observations from a re-analysis of the deposited data

Results flagged for a closer look

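Of 40 groups of arrays tested (10 probes in 4 groups), 1 held an array that stood far from the others: for Ush1c in the hypothalamus, the highest Per3-/- array had -2.74 against a median of -3.42. Chance alone flags about 1 in 20 groups.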

How the results depend on the processing

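The Espn difference in the eye stayed negative under every alternative run and was -0.99 to -0.86 (A_52_P469345) and -0.88 to -0.74 (A_51_P451799) with each mouse left out. Since the genotypes do not overlap, leaving out a mouse could not change its sign. Normexp moved the difference in the eye to -0.36 and -0.19. It moved the eye minus hypothalamus difference to -0.27 and -0.027, where normexp started from the spot median in the eye and the spot mean in the hypothalamus. In the hypothalamus leaving out each mouse gave 0.02 to 0.12 and -0.26 to 0.12. The sources name no pairing of the genotypes by replicate number. Same-numbered mice had correlations of 0.00158 to 0.679 in the eye and -0.204 to 0.396 in the hypothalamus. Their arrays always shared a slide, so these correlations cannot tell slide from replicate number. With the replicate number as a block, Espn had -0.97 and -0.84 in the eye and 0.08 and -0.04 in the hypothalamus, and the calls over all probes fell from 8 to 1 and from 17 to 5. With no replicate block the eye minus hypothalamus difference of Espn was -1.02 and -0.78.

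The counts of 0 related probes called between genotypes held under all alternatives. The single correlation past the adjustment became 0 with quantile normalization, with slide means removed and without the 2 mice farthest from the median, and 2 with normexp, of which 1 was Espn with Cdh23 in the hypothalamus. With slide means removed few shuffles exist, so the 0 there says little. Of the tissue differences past the test, 1 changed sign, that of Cdh23 A_52_P416341 with normexp (-0.56 to 0.14). With normexp, genotype differences turned to 0.043 (Myo7a), 0.18 (Ush1c), 0.17 (Pcdh15 A_52_P311941) and 0.30 (Cdh23 A_52_P416341) in the eye and -0.18 (Pcdh15 A_52_P311941) and -0.082 (Cdh23 A_52_P416341) in the hypothalamus, and eye minus hypothalamus differences to 0.27 (Ush1c), 0.34 and 0.052 (Pcdh15 A_52_P311941 and A_51_P132760) and 0.38 (Cdh23 A_52_P416341). Tissue differences turned to 0.088 (Ush1c), 0.14 and 0.33 (Cdh23 A_52_P416341 and A_52_P625083) with normexp, to -0.014 (Myo7a) and -0.14 (Pcdh15 A_52_P652503) with quantile normalization, and to 0.0069 (Cdh23 A_52_P625083) with the replicate block. The cause was not tested. With each mouse left out, ranges that crossed 0 in the eye were -0.038 to 0.036 (Myo7a), -0.16 to 0.030 (Ush1c), -0.21 to 0.020 (Cdh23 A_52_P416341) and -0.0063 to 0.17 (Pcdh15 A_52_P652503), and in the hypothalamus -0.063 to 0.011 (Myo7a), -0.13 to 0.016 (Ush1c) and -0.042 to 0.30 (Pcdh15 A_52_P311941). Signals near background limit the second Espn probe in the hypothalamus, where 5 of 16 arrays were well above it.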
